A study of Mus musculus with 61 samples.

Results

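The 34 genes described here are the cyclins and cyclin-dependent kinases (CDKs) of single cells from mouse ovaries, of which 15 are cyclins and 19 are kinases. They were chosen by name, as every row of the count table whose symbol is Cdk followed by a number, or Ccn followed by a letter and a number, with cyclin G1 left out, among 23927 rows in all. The cells came from wild-type CD-1 mice, an outbred stock, on postnatal day 5. Each mouse had received the vehicle or doxorubicin, a DNA-damaging anti-cancer drug, by intraperitoneal injection 6 hours earlier. The dose is written as 10 mg/kb, a unit that gives no amount per body weight. The groups were 16 control oocytes, 16 doxorubicin oocytes, 16 control granulosa cells and 13 doxorubicin granulosa cells. The title of the series asks about oocyte JNK and ovarian damage by anti-cancer agents, and the comparisons here were doxorubicin over control in each cell type and oocytes over granulosa cells under each treatment.

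Most CDKs are active only when bound to a cyclin, and many cyclins rise and fall as a cell moves through its cycle. In the textbook order, cyclin D with Cdk4 or Cdk6 carries a cell through G1, cyclin E with Cdk2 starts DNA replication, cyclin A follows, and cyclin B with Cdk1 drives entry into M phase. Other members have no such place in the cycle: Cdk7, Cdk8, Cdk9, Cdk12, Cdk13 and Cdk19 act on RNA polymerase II or its Mediator complex. Oocytes of this age rest in the prophase of the first meiotic division and will not replicate DNA again, while the granulosa cells around a growing follicle multiply by mitosis.

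Cdk1, Ccnb1 and Ccnb2 were present in every oocyte, and the cyclins of this set were highest in the same 3 control granulosa libraries, so their promoters are shown. Genes that peak in G2 and M phase often carry a CHR element (TTTGAA or TTTAAA), which is read by the DREAM and MuvB complexes, and several CCAAT boxes, which are read by NF-Y. The windows run 5′ to 3′ from 250 bases before the RefSeq start site to 20 bases after it, on the strand of the gene, in GRCm38.p6. Capitals mark each CHR element or CCAAT box found on either strand. A box on the opposite strand reads ATTGG. The windows lie at chr10:69352893-69353162 on the minus strand (Cdk1), chr13:100786467-100786736 on the minus strand (Ccnb1), chr9:70421535-70421804 on the minus strand (Ccnb2) and chr10:127063285-127063554 on the plus strand (Cdk4, a G1 kinase given as a contrast).
Cdk1: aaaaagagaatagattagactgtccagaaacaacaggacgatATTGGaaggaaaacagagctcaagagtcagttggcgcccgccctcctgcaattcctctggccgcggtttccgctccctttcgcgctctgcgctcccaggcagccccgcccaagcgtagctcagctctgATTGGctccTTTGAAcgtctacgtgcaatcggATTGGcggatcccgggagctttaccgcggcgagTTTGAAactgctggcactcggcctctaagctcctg
Ccnb1: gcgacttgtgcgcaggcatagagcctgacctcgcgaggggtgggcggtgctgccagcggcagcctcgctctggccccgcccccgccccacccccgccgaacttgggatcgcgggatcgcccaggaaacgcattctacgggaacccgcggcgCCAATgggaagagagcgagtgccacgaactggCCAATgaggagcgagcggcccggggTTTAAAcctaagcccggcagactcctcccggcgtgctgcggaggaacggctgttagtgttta
Ccnb2: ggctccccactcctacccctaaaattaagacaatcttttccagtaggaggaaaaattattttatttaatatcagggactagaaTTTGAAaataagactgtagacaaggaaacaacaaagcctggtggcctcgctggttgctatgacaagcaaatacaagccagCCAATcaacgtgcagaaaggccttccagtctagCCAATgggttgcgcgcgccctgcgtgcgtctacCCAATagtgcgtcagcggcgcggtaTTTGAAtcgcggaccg
Cdk4: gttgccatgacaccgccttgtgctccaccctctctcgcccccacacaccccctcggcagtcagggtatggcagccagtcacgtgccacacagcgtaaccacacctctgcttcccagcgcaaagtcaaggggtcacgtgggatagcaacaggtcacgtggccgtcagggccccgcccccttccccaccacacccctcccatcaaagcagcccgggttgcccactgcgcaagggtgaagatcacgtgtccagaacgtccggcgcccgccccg
The Ccnb1 window held 1 TTTAAA at position -42 from the start site and 2 CCAAT. The Ccnb2 window held 2 TTTGAA, at -167 and 4, and 3 CCAAT. In the Cdk1 window, TTTGAA stood at -71 and -15 and CCAAT occurred 3 times on the opposite strand. The Cdk4 window held none of these letters. It does not stand for all G1 and S phase members: in windows not printed, Ccne1 held TTTAAA at -15 and Cdk2 held CCAAT at -45. A window of Ccnd3 held CCAAT at -108. Ccnb3, of the M phase group, held 2 TTTAAA and no CCAAT. Over the RefSeq windows of 250 bases before and 50 after each start, 26 of the 34 members had an entry, with 28 windows in all. A TTTGAA or TTTAAA stood in 8 of the 28 windows, against 27.6% of 32851 windows of the same length over all genes. At least 2 CCAAT stood in 6 of 28, against 11.7%. Both together stood in 4 of 28, against 3.13%, and the 4 windows were those of Ccnb1, Ccnb2, Cdk1 and 1 of the windows of Cdk16. The pairing of motifs was chosen after the hits were seen, and a match of letters is a description of the sequence only.

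Each library is 1 cell, and no animal is named for any cell. Every group was therefore counted as 1 sample, and no difference given here has a test or a replicate check. Levels are CPM, the counts of a gene summed over a group and scaled to the group's total, and differences are log2 ratios of those CPM with 95% intervals that cover counting error only. The reads are PCR copies with no molecular identifiers, so they do not count independent molecules. A difference was called when it was at least 2-fold and 1 of the groups reached 5 CPM. A lower sum can come from fewer cells with a transcript or from less of it per cell, so the cells are given too. Total counts per library ran from 6834594 to 31262609, with a median of 11127487. Oocytes had a median of 13674 (control) and 13474 (treated) genes with a count, and granulosa libraries 8904 and 9443.

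Some libraries stood apart from their labels. The summed level of 18 oocyte markers exceeded that of 18 granulosa markers in all 32 oocytes, but also in 3 of 16 control granulosa libraries (8, 13 and 14) and in 8 of 13 doxorubicin granulosa libraries (1, 2, 4, 6, 7, 9, 10 and 12). The oocyte sum had a median of 1394 CPM and a range of 357.6 to 15133 CPM in control granulosa libraries. In doxorubicin granulosa libraries its median was 8864 CPM and its range 340.2 to 42173 CPM. All 16 oocyte markers that reached 5 CPM were called higher in the doxorubicin granulosa group, and Oosp1 and Bmp15 were at 0 and 0.0222 CPM in the control group. Lhx8 and Ddx4, also oocyte markers, did not reach 5 CPM and were lower in the doxorubicin group, at 1.82 and 0.797 CPM for Lhx8 and 1.93 and 0.664 CPM for Ddx4. Of the other marker lists in granulosa libraries after the drug, 2 of 17 granulosa markers were called higher and 5 lower, 4 of 8 stroma markers and 2 of 2 endothelial markers were lower, and 2 of 3 blood and immune markers were higher and 1 lower. Over all genes in granulosa cells, 20.6% were called higher after the drug and 20% lower. Doxorubicin granulosa library 15 carried 33378 CPM of blood and immune markers. Among oocytes, the granulosa and stroma markers summed to 4.17 to 1063 CPM in controls and 13.8 to 5051 CPM after the drug. Results on granulosa cells are therefore also given for the 13 control and 5 doxorubicin libraries with more granulosa than oocyte transcripts. They are called the marker-matched libraries, and the part of these markers in each result was not tested beyond that. Stroma markers were not used in that choice. Control libraries 2 and 16 and doxorubicin library 13 were kept with more stroma than granulosa markers. The sums were 8342 and 571.2 CPM, 4384 and 880.9 CPM, and 7961 and 1343 CPM in that order.

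**Figure D1:**
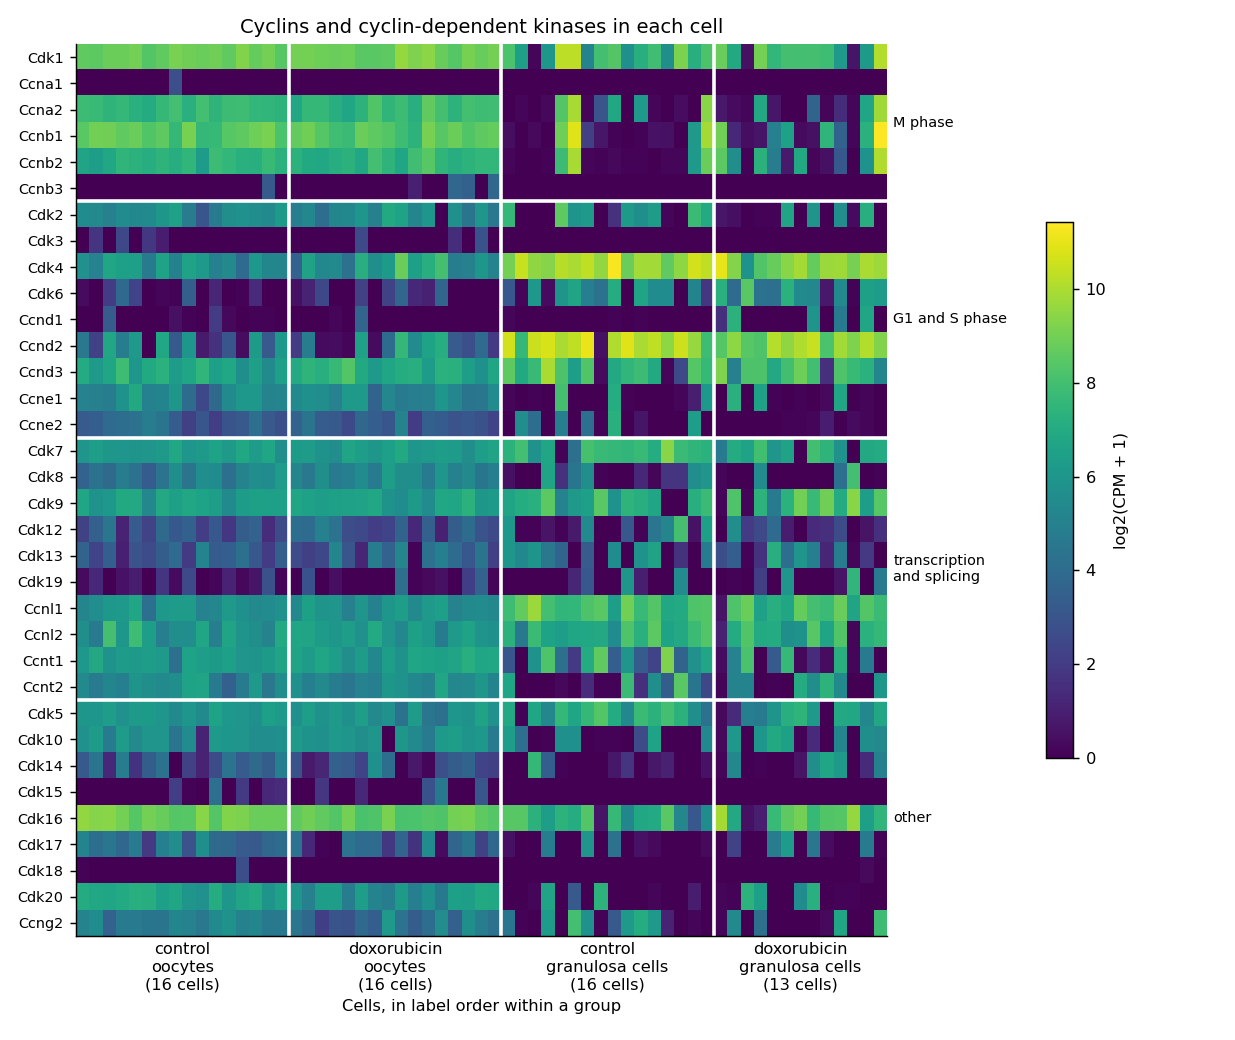
Heat map of the 34 members (rows, by role) in the 61 cells (columns, by group), as log2(CPM + 1) from dark (0) to yellow. Oocyte columns look alike from cell to cell, whereas granulosa columns switch between high and near 0, and Cdk4 and Ccnd2 are bright in nearly every granulosa column.

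The oocytes of both groups carried the transcripts of the M phase machinery in every cell. Cdk1, the M phase kinase (chr10:69335146-69352938, minus strand), stood at 443 CPM in control oocytes, with a lowest, median and highest cell of 333.8, 451.5 and 621.9 CPM. After doxorubicin it stood at 489 CPM, with cells from 337.4 to 787.9 CPM and a median of 481.8 CPM. The groups overlapped almost wholly, and the log2 ratio was 0.14 (0.13 to 0.16). Ccnb1, the B-type cyclin that activates Cdk1 (chr13:100778650-100786570, minus strand), ran from 195.5 to 567.6 CPM with a median of 382.7 CPM in control oocytes. It ran from 166.2 to 543.1 CPM with a median of 369.9 CPM in treated oocytes, a log2 ratio of -0.07 (-0.09 to -0.06). Ccnb2, its paralog, stood at 152 CPM before and 173 CPM after the drug (log2 ratio 0.19). Ccna2, the somatic A-type cyclin of S and G2 phase, stood at 192 and 206 CPM (log2 ratio 0.10). All 4 of these genes were at 5 CPM or more in 32 of 32 oocytes. Their spread was small for single cells: the coefficient of variation of Cdk1 was 17.5% in control oocytes, the lowest of the members at 5 CPM, against a median of 45.4% over the 10469 genes at that level. Leaving out any 1 cell moved none of the 4 ratios past 0.23 in size. Ccnb1 shares 42.1% of its 50-base words with other genes, chiefly Ccnb1-ps, which was listed at 2.25 CPM or less in each group. Ccna2 shares 15.9% with Exosc9, which overlaps it on the opposite strand and was listed at 168 and 185 CPM in control and treated oocytes.

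The other members of the M phase group were rare. Ccna1, the germ-line A-type cyclin, had counts in 1 of 61 cells, control oocyte 8, at 6.00 CPM. Ccnb3, a B-type cyclin with a role in oocyte meiosis, reached 5 CPM in 1 control oocyte and 3 treated oocytes, was highest at 12.7 CPM, and had no count in the 29 granulosa libraries.

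Granulosa libraries held the same genes in an on or off pattern. A wide spread was usual for genes there. In control granulosa libraries the median coefficient of variation was 153.8% over the 10948 genes at 5 CPM and 154.3% over the members at that level. In doxorubicin granulosa libraries it was 150.8% and 162%. The pattern is thus not particular to these genes. In control granulosa libraries Ccnb1 summed to 242 CPM, but its median cell was at 0.366 CPM. The 3 highest cells, libraries 6 (1892 CPM), 16 (948.8 CPM) and 5 (475 CPM), supplied 98.5% of its counts. All 4 of Cdk1, Ccna2, Ccnb1 and Ccnb2 were at 5 CPM or more in these 3 of 16 control libraries. The same libraries held Mki67, the proliferation antigen, at 586.8, 277.7 and 692.6 CPM in that order, and Top2a, the topoisomerase of dividing cells, at 1036, 105.2 and 1365 CPM. Mki67 reached 5 CPM in 5 of 16 control and 4 of 13 doxorubicin libraries, and Top2a in 7 of 16 and 3 of 13. Some of these libraries lacked the cyclins. Control library 2 held Mki67 at 213.2 CPM with Ccna2, Ccnb1 and Ccnb2 at a sum of 0.1525 CPM. Control library 14 and treated library 14 held Top2a at 84.13 and 86.81 CPM with cyclin sums of 0.4389 and 0.3245 CPM. Ccnb1 and Ccnb2 reached 5 CPM in 4 of 16 control libraries each, and in 7 and 8 of 13 doxorubicin libraries. The sum of Ccna2, Ccnb1 and Ccnb2 had a median of 2.19 CPM in control and 93.97 CPM in doxorubicin libraries. Cdk1 itself was broader than its cyclins: it was at 5 CPM or more in 15 of 16 control and 11 of 13 doxorubicin granulosa libraries, with medians of 197.1 and 238.6 CPM.

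After doxorubicin, 2 of 13 granulosa libraries had all 4 genes at 5 CPM or more. Library 16 held Ccnb1 at 2763 CPM with Top2a at 1514 CPM and Mki67 at 262.9 CPM. Library 15, the one with blood and immune markers, held Ccnb1 at 158 CPM with Mki67 at 93.9 CPM and no Top2a count. In a further set, libraries 1, 6, 9 and 12 held Ccna2, Ccnb1 and Ccnb2 at a sum of 879.2, 281.3, 121.1 and 180.4 CPM with Mki67 and Top2a each below 1 CPM. In library 9 this was nearly all Ccnb2 (120.9 CPM) and in library 12 nearly all Ccnb1 (179.9 CPM). The oocyte markers in those 4 libraries summed to 42173, 30019, 8864 and 15896 CPM, above their granulosa markers. The oocytes themselves held both proliferation genes: Mki67 and Top2a were at 5 CPM or more in all 16 control and all 16 treated oocytes. Library 1 held Ccna2 at 0.727 CPM, while the lowest treated oocyte held it at 106.5 CPM and the lowest control oocyte at 130 CPM. The source of the cyclin transcripts in these libraries was not tested. Treated library 7 held 57.5 CPM of the cyclins with no Mki67 count. Libraries with more granulosa than oocyte transcripts showed the same: treated library 8 held 93.97 CPM of the cyclins with no Mki67 or Top2a count, control library 15 held 143.4 CPM with Top2a at 0.486 CPM, and control library 11 held 69.84 CPM with Top2a at 1.755 CPM, neither control with an Mki67 count. Over all 29 granulosa libraries, however, the rank correlation with the oocyte marker sum was -0.02 for Ccnb1, 0.00 for Ccnb2 and -0.06 for Cdk1. It is a description over libraries of 2 treatments that share totals as the denominator.

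**Figure D2:**
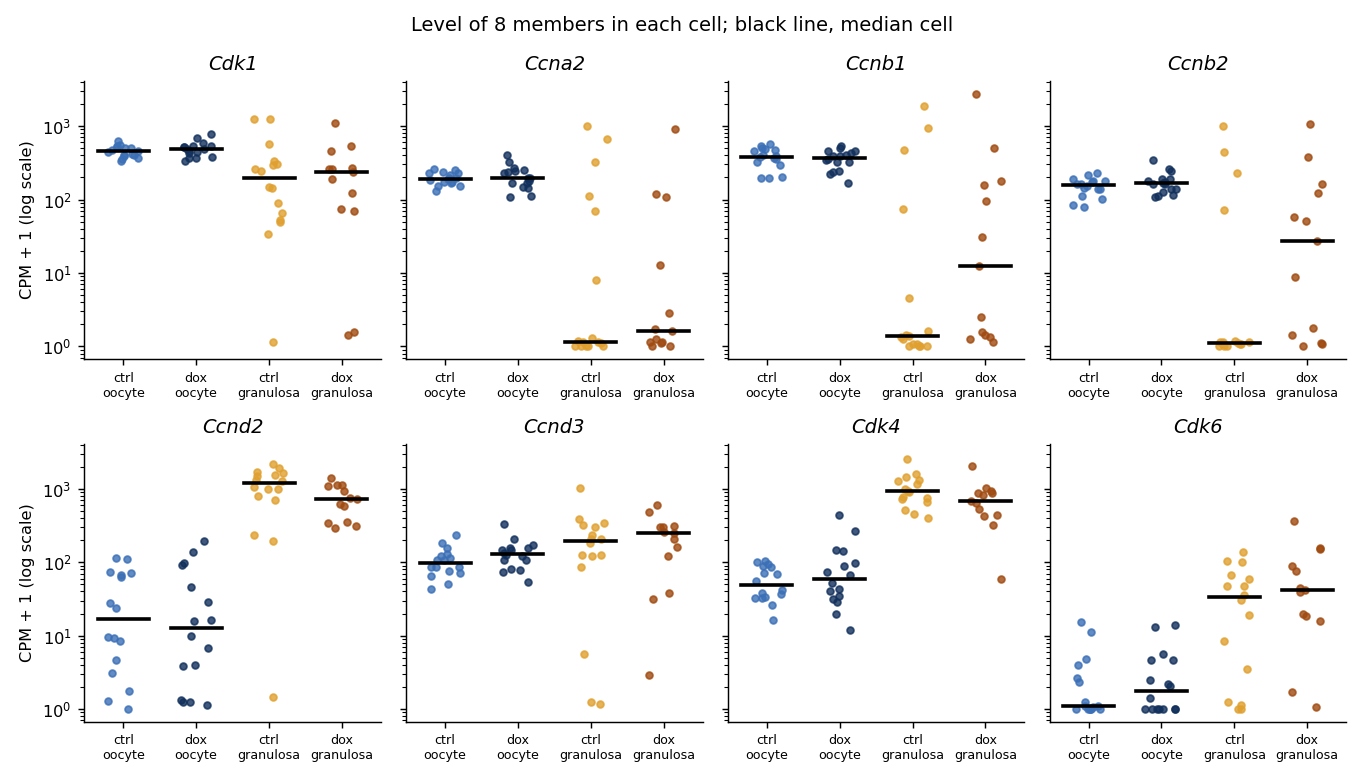
Level of 8 members in each cell (CPM + 1, log scale), 1 point per cell and a black line at the median cell. The 4 M phase genes form a tight band in oocytes and run from near 0 to as much as 2763 CPM (Ccnb1) in granulosa libraries, while Ccnd2, Cdk4 and Cdk6 lie higher in granulosa libraries.

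**Figure D3:**
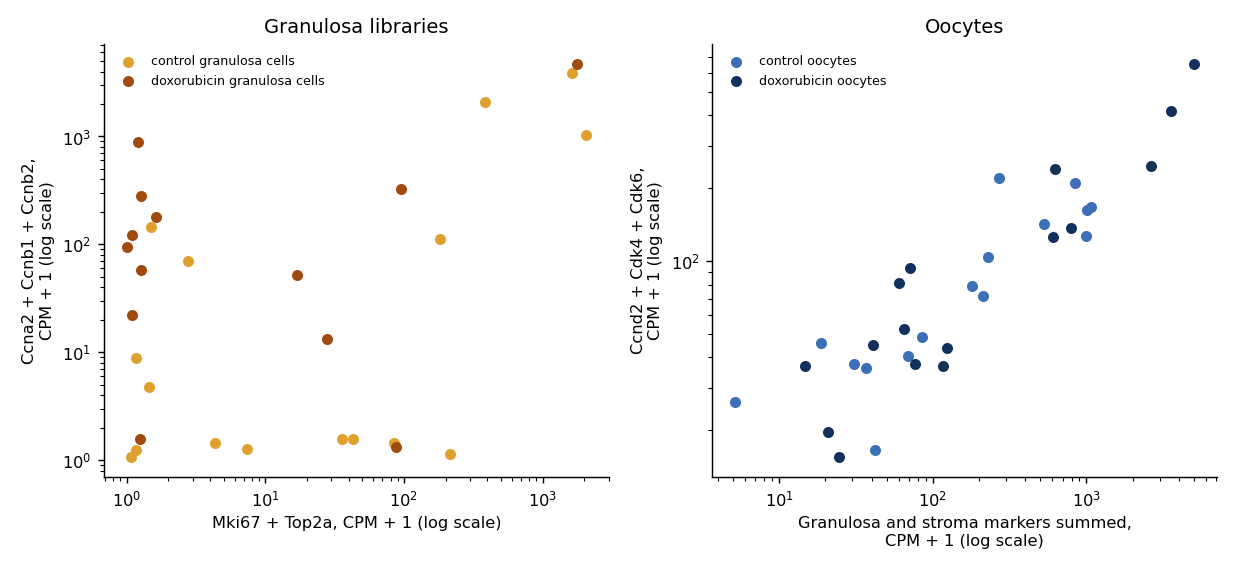
Left, the summed CPM of Ccna2, Ccnb1 and Ccnb2 against the summed CPM of Mki67 and Top2a in 29 granulosa libraries. Right, the summed CPM of Ccnd2, Cdk4 and Cdk6 against that of granulosa and stroma markers in 32 oocytes. All axes are CPM + 1 on log scales. Libraries with high M phase cyclins and low Mki67 and Top2a, at the upper left, come from both treatments, and the points of the right panel climb together up to 653.1 CPM.

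The sums of the M phase genes in granulosa cells rested on single libraries. Ccna2 was at 154 CPM in control and 84.9 CPM in treated granulosa cells, a log2 ratio of -0.85 (-0.89 to -0.82). Without doxorubicin library 16 the ratio was -3.04, and without control library 6 it was -0.03. Ccnb1 had a ratio of 0.19, which became -1.70 without doxorubicin library 16 and 1.33 without control library 6. For Ccnb2 the ratio of 0.16 became -0.97 and 1.36 without the same libraries. In the marker-matched libraries the ratios were 0.01 for Ccna2, 0.95 for Ccnb1, 0.49 for Ccnb2 and -0.17 for Cdk1. No direction for these genes in granulosa cells held up when 1 library was left out, Ccna2 excepted, and none was called. Between control cell types the 4 genes were 0.31 to 0.65 higher in oocytes on the log2 scale. Without control granulosa library 6, Ccnb1 (1.79), Ccnb2 (1.51) and Ccna2 (1.15) passed 2-fold and Cdk1 was at 0.89. Against the 13 control libraries with more granulosa than oocyte transcripts the values were 0.06 for Ccna2, 0.38 for Ccnb1, 0.04 for Ccnb2 and 0.44 for Cdk1. Against the 7 control libraries with over 5000 CPM of granulosa markers all 4 lay below 0, at -0.35, -0.10, -0.48 and -0.23. By median cells, on the log2(CPM + 1) scale, they were 1.24 (Cdk1) to 8.13 (Ccnb1) higher in oocytes. The median of all genes was also higher in oocytes on that scale, by more than Cdk1 was, with its value given in the last section. The direction between the cell types thus depended on which granulosa libraries were counted and how.

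The G1 genes divided the 2 cell types. Cdk4, the G1 kinase (chr10:127063534-127067920, plus strand), stood at 54.6 CPM in control oocytes, with cells from 15.1 to 104.2 CPM and a median of 47.5 CPM. In control granulosa cells it stood at 1026 CPM, with cells from 401.2 to 2531 CPM and a median of 918.3 CPM. All 16 control oocytes lay below the lowest control granulosa library, and the log2 ratio was -4.23 (-4.26 to -4.20). Ccnd2, the D-type cyclin of granulosa cells (chr6:127125162-127152193, minus strand), stood at 39.9 CPM in control oocytes and 1120 CPM in control granulosa cells. Its median cells were at 15.7 and 1181 CPM and its log2 ratio was -4.81 (-4.84 to -4.78). Granulosa library 8, at 0.441 CPM, was the only control granulosa library in the oocyte range, and it is 1 of those with more oocyte than granulosa transcripts. Cdk6, the other kinase that pairs with D-type cyclins, stood at 1.94 and 41.1 CPM (log2 ratio -4.41, -4.56 to -4.26). Ccnd3, a further D-type cyclin, stood at 103 and 229 CPM (log2 ratio -1.16), but at -0.77 without control granulosa library 4. Per kilobase of the longest transcript, Cdk4 led the control granulosa cells at 500 CPM per kb, or 29.1% of the members' sum, with Ccnd2 next at 177. In control oocytes the leading members per kilobase were Cdk16 at 154, Ccnb1 at 152, Cdk1 at 101 and Ccnb2 at 99.3.

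The low levels of these genes in oocytes moved with the markers of other cells. Over 32 oocytes the rank correlation with the summed granulosa and stroma markers was 0.84 for Cdk4 and 0.83 for Ccnd2. It was 0.66 for Ccnl1 and 0.25 for Ccnd3. These are descriptions across cells of 2 treatments and say nothing on the cause. In the 8 control oocytes with under 200 CPM of those markers, the log2 ratio to control granulosa cells was -7.35 for Ccnd2, -7.60 for Cdk6 and -4.92 for Cdk4. Cdk4 shares 29.5% of its 50-base words with Tspan31, which overlaps it on the opposite strand. Tspan31 was listed at 186, 218, 204 and 197 CPM in the 2 oocyte groups and the 2 granulosa groups, control first in each, and whether the counting used strand is not given in the sources used here.

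The cyclin E group was close between the oocyte groups, but varied from cell to cell in both cell types. Cdk2, the S phase kinase, stood at 49.1 CPM in control and 44.8 CPM in treated oocytes. Ccne1 stood at 42.6 and 40.7 CPM, and Ccne2 at 11.02 and 10.1 CPM, with log2 ratios between -0.13 and -0.07 for the 3 genes. Their coefficients of variation over oocytes ran from 44% to 73.2%. In control granulosa libraries the median cell was at 55.4 CPM for Cdk2, 0.0376 CPM for Ccne1 and 0.0441 CPM for Ccne2. Cdk3, a G1 kinase, had counts in 4 control and 3 treated oocytes, was highest at 6.33 CPM, and had no count in granulosa libraries. Ccnd1 was at 0.797 CPM in control oocytes and 0.789 CPM in treated ones, highest in control oocyte 3 (9.035 CPM) and treated oocyte 6 (12.3 CPM).

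In oocytes, no member at 5 CPM in either group differed by 2-fold after doxorubicin. Of the 34 members 26 reached 5 CPM, and 0 were called higher and 0 lower, where 6.3% of the 11119 genes at that level were called higher and 2.45% lower. At such shares a count of 0 among 26 genes says little about the members as a group. Their median log2 ratio was -0.06, against 0.01 over all genes. The 8 members that did not reach 5 CPM were Ccna1, Ccnb3, Cdk3, Cdk6, Ccnd1, Cdk15, Cdk18 and Cdk19. Below that level, Ccnb3 stood at 0.460 and 2.06 CPM (log2 ratio 2.17), with all control counts from oocyte 15, and Cdk19 at 1.04 and 2.30 CPM (1.15, or 0.52 without treated oocyte 9).

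Several kinases outside the cycle proper were lower in treated oocytes. Cdk17, a PCTAIRE kinase, stood at 19.5 CPM in control oocytes and 10.9 CPM after the drug (log2 ratio -0.84, -0.91 to -0.76), and -1.12 without treated oocyte 11. Its control cells ran from 2.69 to 51.6 CPM, and 6 of 16 treated oocytes lay below them all. Cdk20, the cell cycle-related kinase that also acts in cilia (chr13:64432314-64441773, plus strand), stood at 103 and 62.1 CPM (log2 ratio -0.73, -0.77 to -0.70). Its control cells ran from 54.1 to 149 CPM with a median of 105.5 CPM, and treated cells ran from 23.99 to 122.6 CPM with a median of 68.7 CPM. Of the treated oocytes, 7 of 16 lay below every control, and none lay above. Cdk16, the PCTAIRE kinase that pairs with cyclin Y (chrX:20687954-20699880, plus strand), stood at 504 and 399 CPM (log2 ratio -0.34). Its control cells ran from 329.4 CPM upward, and again 7 of 16 treated oocytes lay below that. Ccng2, a cyclin known from growth-arrested cells, had medians of 28.7 and 14.95 CPM, a log2 ratio of -0.52, and 6 of 16 treated oocytes below every control. Cdk14, a PFTAIRE kinase, had a ratio of -0.57 that became -1.21 without treated oocyte 7, which held 52.05 CPM. In the 8 control and 10 treated oocytes with few granulosa and stroma transcripts, the ratio of Cdk14 was 0.35.

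Among higher values, Cdk4 stood at 54.6 CPM in control and 92.9 CPM in treated oocytes (log2 ratio 0.77, 0.73 to 0.80). Treated oocytes 9, 12, 11 and 6, at 445.1, 265.6, 146.9 and 143 CPM, lay above every control, and the medians were 47.5 and 58.2 CPM. Oocytes 9, 11 and 12 were those with 3168, 2633 and 2098 CPM of granulosa markers. Without oocyte 9 the ratio was 0.45, and among oocytes with few granulosa and stroma transcripts it was 0.20. Cdk13, a transcription kinase, had a ratio of 0.58, with median cells of 9.33 and 9.22 CPM. Ccnd3 had a ratio of 0.46, with medians of 95.55 and 129.4 CPM, and 0.73 among the oocytes with few granulosa and stroma transcripts.

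**Figure D4:**
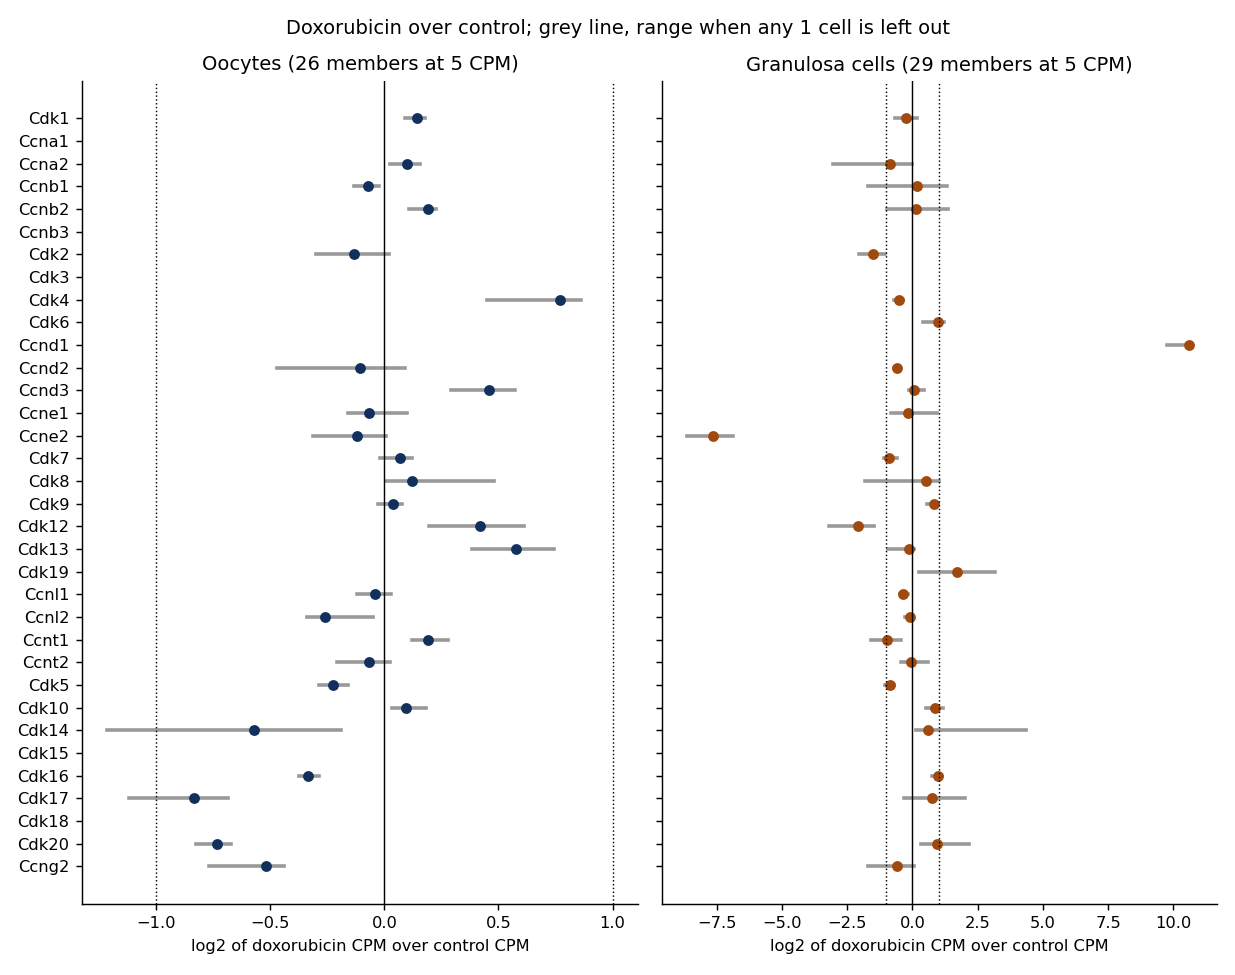
Log2 ratio of doxorubicin CPM over control CPM for the members at 5 CPM in either group, in oocytes (left, 26 members) and granulosa cells (right, 29 members), with grey lines for the range when any 1 cell is left out and dotted lines at 2-fold. The horizontal scales differ: oocyte values lie between -0.84 and 0.77, and granulosa values reach 10.58 for Ccnd1 and -7.64 for Ccne2.

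In granulosa cells, 29 members reached 5 CPM. Of these 2 were called higher and 3 lower, where 20.6% of 12194 genes were called higher and 20% lower. The members' shares were therefore below the background in both directions, and their median log2 ratio was -0.11 against -0.03 over all genes. The 5 called members follow, with the cells behind each.

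Ccnd1, the D-type cyclin that responds to growth signals (chr7:144929931-144939925, minus strand), had 3 counts in 3 of 16 control libraries, a level of 0.0167 CPM. In the treated group it stood at 25.6 CPM, with 160.3 CPM in library 2, 109.4 CPM in library 15, 60.1 CPM in library 10, 26 CPM in library 13 and 1.97 CPM in library 1. The other 8 treated libraries had no count. The log2 ratio was 10.58 (9.03 to 12.86), 9.77 without library 2 and 10.20 in the marker-matched libraries. The share of cells at 5 CPM was 0 of 16 before, with an exact binomial upper bound of 20.6%, and 4 of 13 after (30.8%, 9.09% to 61.4%), so the 2 intervals overlap. In the marker-matched treated libraries, the counts came from libraries 13 and 15 only. Library 13 held more stroma than granulosa markers (7961 and 1343 CPM), and library 15 is the one with blood and immune markers. Ccnd1 shares 27.2% of its 50-base words with LTO1, a gene on the opposite strand.

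Cdk19, a Mediator kinase, stood at 7.23 CPM in control and 23.5 CPM in treated granulosa cells (log2 ratio 1.70, 1.61 to 1.79). It reached 5 CPM in 3 libraries of each group, treated library 14 held 181.7 CPM, and without that library the ratio was 0.25. Without control library 10 it was 3.18.

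Ccne2, the second E-type cyclin (chr4:11191351-11204779, plus strand), summed to 20.9 CPM before the drug and 0.105 CPM after it in granulosa cells (log2 ratio -7.64, -8.48 to -6.91). Controls 9 (152.5 CPM), 15 (83.5 CPM), 2 (47.6 CPM), 5 (29.8 CPM), 7 (17.3 CPM) and 3 (16.6 CPM) carried it, and the other 10 controls were below 1 CPM. The highest treated library was at 0.833 CPM, so 0 of 13 treated libraries reached 5 CPM, with an upper bound of 24.7%, against 6 of 16 controls (37.5%, 15.2% to 64.6%). The ratio was -6.89 without control library 9, -8.64 without treated library 12 and -8.18 in the marker-matched libraries. Because 10 controls lay within the treated range, the median cells (0.0441 and 0 CPM) differed little.

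Cdk2 was at 75.9 CPM in control and 26.9 CPM in treated granulosa cells (log2 ratio -1.50, -1.55 to -1.45). It reached 5 CPM in 9 of 16 control and 4 of 13 treated libraries, with median cells of 55.4 and 0.243 CPM. The ratio was -1.03 without control library 5 and -2.06 without treated library 15, and in the marker-matched libraries it was -0.68, under 2-fold. Over the 29 libraries its rank correlation with the oocyte marker sum was -0.45. Cdk12, a kinase of RNA polymerase II that supports long DNA repair genes, was at 27.4 and 6.39 CPM (log2 ratio -2.10, -2.20 to -2.00). Control library 14 held 268.8 CPM, and without it the ratio was -1.49. Without treated library 2 it was -3.21. The median cells ran the other way, at 0.636 CPM in controls and 1.87 CPM after the drug.

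Further members of granulosa cells differed by less than 2-fold in the sums over all libraries. Cdk6 (0.98), Cdk16 (0.98), Cdk20 (0.96), Cdk10 (0.85), Cdk9 (0.81) and Cdk17 (0.75) were higher, Cdk17 at -0.33 without treated library 8. Ccnt1 (-0.96), Cdk7 (-0.90), Cdk5 (-0.87), Ccnd2 (-0.60) and Cdk4 (-0.50) were lower. Cdk20 was at 0 or under 1 CPM in 13 of 16 control and 9 of 13 treated libraries. The libraries above that were controls 8 (166.6 CPM), 4 (100.6 CPM) and 6 (8.26 CPM) and treated 4 (165 CPM), 10 (151.9 CPM), 6 (87.4 CPM) and 9 (46.25 CPM). Control 8 and the 4 treated libraries had more oocyte than granulosa transcripts, and in the marker-matched libraries the ratio of Cdk20 was -7.36. Ccnd2 kept its value there (-0.63), as did Cdk4 (-0.51), and no single cell turned either. The median cells of Ccnd2 were at 1181 and 719.4 CPM, and its groups overlapped over most of their range. Ccnt1 (0.41) and Cdk5 (0.06) were above 0 in the marker-matched libraries. There Cdk17 (1.28), Cdk16 (1.19) and Cdk9 (1.04) passed 2-fold, while Cdk10 (0.82), Cdk6 (0.74) and Cdk7 (-0.95) did not.

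Between control cells, 28 members reached 5 CPM, of which 4 were called higher and 9 lower in oocytes, where 29% of 12373 genes were called higher and 31.3% lower. The members' median log2 ratio was -0.62, against -0.03 over all genes. The lower ones included Cdk4, Ccnd2, Cdk6 and Ccnd3 of G1 and 5 of the transcription group. Ccnl1, the cyclin of splicing with the CDK11 kinases, stood at 56.5 CPM in oocytes and 310 CPM in granulosa cells (log2 ratio -2.45, -2.48 to -2.42), and 15 of 16 control oocytes lay below every control granulosa library. Cdk7, the CDK-activating kinase of TFIIH, had a ratio of -1.38 and Cdk13 one of -1.47. Cdk12 (-1.85) and Cdk19 (-2.80) were lower by their sums, but their median cells were higher in oocytes, at 7.79 against 0.636 CPM for Cdk12 and 0.352 against 0 CPM for Cdk19. Cdk19 was at -1.32 without granulosa library 10, and Cdk12 at -1.24 without library 14.

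The 4 members called higher in control oocytes were kinases outside the core cycle. Cdk20 stood 2.55 higher on the log2 scale (2.50 to 2.61), or 3.77 without granulosa library 8 and 3.59 against the marker-matched libraries. Cdk16 had a ratio of 1.63 (1.61 to 1.65), with 12 of 16 control oocytes above every control granulosa library. Cdk17 had a ratio of 1.37, and 2.64 without granulosa library 7. Cdk10, the partner of cyclin M, had a ratio of 1.30, with median cells of 53.3 and 0.0901 CPM. It shares 29.8% of its 50-base words with other genes, chiefly the pseudogene Gm6473, which was listed at 0.0358 CPM or less in each group.

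After doxorubicin, 29 members reached 5 CPM, with 2 called higher and 8 lower in oocytes, where 27.6% of 12428 genes were called higher and 28.2% lower. Ccnd2 (-4.31), Cdk6 (-5.06), Cdk4 (-2.96) and Ccnl1 (-2.15) were lower, and 16 of 16 treated oocytes lay below every treated granulosa library for Ccnd2. Ccnd1 (-5.02), Cdk19 (-3.35), Cdk9 (-1.44) and Cdk14 (-1.31) were lower too. Cdk14 was at -0.82 without granulosa library 12, and its median cells were at 5.01 and 0.505 CPM, higher in oocytes. The 2 higher members were Ccne2 at 6.60 (5.87 to 7.43), with 16 of 16 treated oocytes above every treated granulosa library, and Ccna2 at 1.28, which became 3.46 without granulosa library 16 and 0.15 against the marker-matched libraries. Both comparisons of cell types share their groups with the comparisons of treatments.

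The transcription and splicing members differed little between the oocyte groups. Of the 10, 9 reached 5 CPM there, with log2 ratios of doxorubicin over control from -0.26 to 0.58 and a median of 0.07. Cdk9, the elongation kinase, was at 86.6 and 89.0 CPM, and its cyclins Ccnt1 and Ccnt2 were at 77.45 and 88.4 CPM and at 45.7 and 43.5 CPM. Ccnl2 was at 89.8 and 74.95 CPM. Cdk8, the other Mediator kinase, was at 35.8 and 39.0 CPM in oocytes. In granulosa cells it was at 18.8 and 26.9 CPM, where treated library 14 held 256 CPM and the ratio of 0.52 became -1.82 without it. In the marker-matched libraries, which include treated library 14, the ratio of Cdk8 was 1.38. Cdk15 and Cdk18 had no more than 23.6 CPM in any cell and did not reach 5 CPM in any group.

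The rest of the pathway was taken from fixed lists outside the 34. Over all genes in oocytes, 6.3% were called higher after doxorubicin and 2.45% lower. At such shares a count of 0 in a short list says little about that list. Of 8 genes for CDK inhibitors, 7 reached 5 CPM in oocytes and 3 were called higher after doxorubicin. These were Cdkn1a, which encodes p21 (15.7 and 130.5 CPM), Cdkn2b (3.17 and 22.1 CPM) and Cdkn2c (2.19 and 11.9 CPM). Cdkn2c rested on few cells, with medians of 0 and 0.0807 CPM, and its log2 ratio of 2.45 was 1.37 without treated oocyte 4, the cell with lost raw data, and 5.08 without control oocyte 4. In granulosa cells Cdkn1a stood at 13.5 and 1161 CPM (log2 ratio 6.42, or 7.62 without control library 5) and Cdkn2b at 0.0167 and 14.6 CPM, while Cdkn3 was called lower (26.2 and 11.7 CPM, a log2 ratio of -1.16, and -0.68 without control library 6). Cdkn1b, which encodes p27, was called lower in control oocytes than in granulosa cells, at 9.83 and 82.2 CPM. Of 8 regulators of CDK phosphorylation and binding, 0 were called in oocytes after the drug, although Cdc25a stood at 49.3 and 27.9 CPM. Wee2, the oocyte kinase that holds Cdk1 inactive, stood at 125 CPM in control oocytes and 89.9 CPM in treated ones. In granulosa cells it stood at 0.0445 CPM in controls and 18.2 CPM after the drug, where the oocyte markers were higher too. Of 11 genes of the anaphase-promoting complex and meiotic arrest, 0 were called in oocytes after the drug. Fzr1, the activator that keeps cyclin B low in arrested oocytes, stood at 1030 and 764 CPM.

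Among 16 proliferation genes, all reached 5 CPM in every comparison. In oocytes 1 of them, Rrm2, was called higher after doxorubicin (31.7 and 76.4 CPM), beside 6.3% over all genes. In granulosa cells 0 were higher and 5 of 16 were lower, beside 20.6% and 20% over all genes. Mki67 was at 123 and 28.0 CPM (log2 ratio -2.14), but at -3.78 without treated library 16 and -1.60 without control library 5. Mcm6 was at 440 and 176 CPM (-1.32, and -1.55 to -1.09 when any 1 cell was left out). The median log2 ratio of the 16 was -0.59, against -0.03 over all genes. Of 14 genes of the E2F, RB and DREAM group, which govern transcription of cycle genes, 13 reached 5 CPM in oocytes and 1 was called higher, E2f7 (0.715 and 6.50 CPM, log2 ratio 3.18, or 7.64 without control oocyte 8). In granulosa cells 3 of 13 were higher (Mybl2, E2f1 and Rbl2) and 3 lower (E2f3, E2f8 and Lin54), close to the 20.6% and 20% over all genes. The Rrm2 ratio of -1.17 in granulosa cells was 0.14 without control library 5. Of 14 cyclins and kinases with other symbols, 10 reached 5 CPM in oocytes and 0 were called after the drug. Ccno, the cyclin O gene, was at 540 and 555 CPM in oocytes and at 40.3 and 292 CPM in control and treated granulosa cells, again beside the higher oocyte markers of the treated libraries.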

How the data were processed

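Single oocytes and granulosa cells were sequenced as SMART-seq cDNA libraries, per the labels' protocols. The authors deposited 1 table of estimated counts (expected counts), with genes as lines and cells as columns. Of its nonzero values, 32.3% are not whole within 1e-06. The submitters' processing notes name Partek, Bowtie2, HISAT2, DESeq2 and the mm10 build with no order or role, and the counting method and its use of strand are not given in the sources used here. All 61 columns were matched to samples by name. The series text reports lost raw data for 1 cell, doxorubicin oocyte 4, whose column was kept. Date-like symbols stand for 22 genes with 0.144% of the counts, which stay in the totals.

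Counts were rounded, summed over the cells of a group and divided by the summed total to give CPM. Ratios have exact conditional binomial intervals, CPM exact Poisson intervals and shares exact binomial intervals (95%, scipy 1.17.1), and the floor for a group is 3 counts. With 1 sample per group no test was made. No 2 libraries of a group agreed within sampling noise (lowest chi-square per degree of freedom 56.7). The calculation was tested on simulated data. The members, roles and lists were chosen with earlier results of these data known. Every member is accounted for. Those called, and those of M, G1 and S phase, are named with their cells, and other members and list genes were named after their values were seen. Alternatives were the mean and median cell, TMM factors (edgeR 4.0.16), DESeq2 1.42.0 size factors, other filters on low genes, subsets of libraries by markers, thinning, and leaving out each library. Gene positions, transcript lengths and 50-base words shared with other genes came from GENCODE M21 (GRCm38), which lacks Cdk3, and promoter windows from RefSeq GRCm38.p6.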

Additional observations from a re-analysis of the deposited data

Results flagged for a closer look

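Of the 26 members at 5 CPM in both comparisons of doxorubicin over control, 7 had log2 ratios on opposite sides of 0 in oocytes and granulosa cells. In each, both ratios lay outside 0 by their counting intervals and when any 1 cell was left out. The difference between the cell types was not tested, since each group is 1 sample. The share of all genes that meet the same rule was not computed, so the count of 7 says nothing particular to the members. Ccna2 had a ratio of 0.10 in oocytes and -0.85 in granulosa cells. Ccnt1 had 0.19 and -0.96, Cdk12 had 0.42 and -2.10, and Cdk4 had 0.77 and -0.50. On the other side, Cdk14 had -0.57 in oocytes and 0.62 in granulosa cells, Cdk16 had -0.34 and 0.98, and Cdk20 had -0.73 and 0.96. In the granulosa libraries with more granulosa than oocyte transcripts, Cdk4 (-0.51), Cdk12 (-3.36), Cdk14 (0.27) and Cdk16 (1.19) had the same sign, while Ccna2 (0.01), Ccnt1 (0.41) and Cdk20 (-7.36) had the opposite one. The median cells of Cdk12 in granulosa libraries also ran the other way. Cdk14 changed sign in the oocytes with few granulosa and stroma transcripts (0.35), as did Ccna2 (-0.10). In those oocytes Cdk4 kept its sign but stood at 0.20. Ccnt1 (0.31), Cdk12 (0.98), Cdk16 (-0.30) and Cdk20 (-0.59) also kept theirs.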

How the results depend on the processing

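No paired analysis was possible because each group was 1 sample with no test, and the replicate numbers only name cells. TMM factors and DESeq2 size factors left all 8 counts of called members as they were. In oocytes, doxorubicin over control, the 0 higher became 2 at a limit of 1 CPM and 2 with no filter, and the 0 lower became 2 with no filter. In granulosa cells the 2 higher became 4 with the mean of the cells, 4 and 7 with medians of log2(CPM + 1) and log2(CPM + 0.1), 6 in libraries with more granulosa than oocyte transcripts and 7 in those with over 5000 CPM of granulosa markers, and the 3 lower became 6 with either median. Between control cells the 4 higher became 16 and 17 with the medians and 10 with no filter. Between treated cells the 2 higher became 14 with either median, 4 at 1 CPM, 1 at 20 CPM, 5 with no filter, and 4 and 5 in the marker subsets, and the 8 lower became 4 with either median. With them the median of all genes was 1.53 and 1.96 between control cells and 1.39 and 1.69 between treated cells, against -0.03 and 0.02. Leaving out 1 cell gave 0 to 0 higher and 0 to 1 lower in oocytes, 2 to 6 and 3 to 6 in granulosa cells, 4 to 7 and 9 to 11 between control cells, and 2 to 5 and 7 to 9 between treated cells. With the 2 medians, Cdk12 turned to 0.82 and 1.44 in granulosa cells and to 2.43 and 3.44 between control cells, Cdk19 to 0.43 and 2.14 between control and 0.14 and 1.00 between treated cells, and Cdk14 to 1.98 and 3.05 between treated cells (0.52 in libraries with over 5000 CPM of granulosa markers). The cause was not tested. Thinning each cell to 5000000 counts changed 6 of 136 counts of cells at 5 CPM, by at most 1 cell.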
